A study of Mus musculus with 18 samples.

Results

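The aminoacyl-tRNA synthetases are the enzymes that join each amino acid to its tRNA, and 36 genes of this family were examined among the 51499 assembled loci of the deposited table. They were taken by gene symbol as members of the family, and the family was picked with earlier results of these data known. The 20 members classed as cytosolic (Aars to Yars, with Farsa and Farsb) supply the ribosomes of the cytosol. The 16 classed as mitochondrial (symbols ending in 2) are nuclear genes whose products charge tRNAs inside mitochondria. These classes follow the symbols only, and whether a product serves both compartments was not examined. Each member was found at 1 locus, and all 36 had a mean of at least 1 FPKM over the groups, as did 11929 of all loci. FPKM is the number of fragments scaled for transcript length and for sequencing depth.

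RNA was sequenced from mouse embryonic fibroblasts labelled Ago2+/+ (wild type for Ago2, the gene of the Argonaute that cleaves RNA in RNA interference) or labelled Ago2-/- (lacking Ago2). Cells of each label received the solvent DMSO, tunicamycin, an inhibitor of protein N-glycosylation, or thapsigargin, an inhibitor of the calcium pump of the endoplasmic reticulum (ER). According to the methods of the study, cells grew for 3 days and ER stress lasted 6 h, at 3 µg per ml tunicamycin or 500 nM thapsigargin. There were 18 libraries, 3 in each of 6 groups, from 1 cell line per genotype. The study did not authenticate its lines, although it tested the Ago2-/- cells for absence of the protein.

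The authors deposited 1 pooled FPKM per locus and group, so no value below has a replicate error, the depth of the libraries is unknown and no difference was tested. A member is counted as higher or lower when the ratio of FPKM + 0.1 between 2 groups was at least 1.5-fold, and the share of all 11929 loci past that ratio is given beside the counts of members for each comparison. Total FPKM per group ranged from 561944 to 644190.

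The genotype labels conflict for 4 of the libraries, and the level of Ago2 went against the labels. With DMSO, tunicamycin and thapsigargin in turn, Ago2 stood at 22.1, 5.75 and 17.0 FPKM under the label Ago2+/+ and at 5.61, 15.5 and 20.7 FPKM under the label Ago2-/-. Groups are therefore named by their labels only, and every direction for genotype or stressor below rests on those labels. Of the 8 fibroblast markers Thy1 was listed at 0 in every group, while the other 7 ranged at least 2-fold across the groups. Col1a1, a main collagen of fibroblasts, ran from 5.97 FPKM in Ago2-/- DMSO to 651.1 FPKM in Ago2-/- tunicamycin. The summed levels of 4 markers each of epithelial cells (0.182 to 1.33 FPKM), leukocytes (1.18 to 1.94 FPKM) and endothelial cells (0.121 to 0.465 FPKM) were low throughout.

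When uncharged tRNA accumulates or the ER is stressed, kinases of the integrated stress response phosphorylate the initiation factor eIF2, and translation of the transcription factor ATF4 rises. ATF4 is known to raise a set of genes for amino acid import, amino acid synthesis and tRNA charging, many cytosolic synthetases among them, through CARE elements near their start sites. Mitochondrial synthetases are not usually counted among its targets.

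The RefSeq promoter table (GRCm38.p6, 250 bases before to 50 bases after each start) held 27 of the 36 members. It was searched on both strands for TGATGNAA, the core of the CARE element, where N is any base. The core lay in the promoters of 5 of 13 cytosolic members and 0 of 14 mitochondrial members, beside 4.51% of the 27025 genes in the table. The 5 genes were Aars, Gars, Iars, Tars and Yars, which charge alanine, glycine, isoleucine, threonine and tyrosine tRNAs. All 5 belong to the list of 12 synthetases usually given as ATF4 targets, of which 8 had a promoter. The other 5 cytosolic members with a promoter held no match. Cars, Hars, Lars, Nars, Rars, Vars, Wars, Hars2 and Pars2 had no entry. A match is a run of letters and not a shown site of binding. The 30 bases around the match in Gars, Iars, Tars and Yars are printed on the strand of the gene, with the core or its reverse complement in capitals, because the genes with the core are followed as a set below.
Gars, chr6:55037960-55037989, plus strand, -41 to -12 from the start: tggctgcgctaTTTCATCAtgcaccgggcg
Iars, chr13:49682126-49682155, plus strand, -4 to 26 from the start: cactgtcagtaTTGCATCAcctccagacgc
Tars, chr15:11399655-11399684, minus strand, -26 to 4 from the start: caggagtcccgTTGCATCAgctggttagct
Yars, chr4:129189895-129189924, plus strand, -8 to 22 from the start: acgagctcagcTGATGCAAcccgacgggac

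Cytosolic synthetases were the more abundant class in each group. With DMSO, tunicamycin and thapsigargin in turn, the median cytosolic level was 125.62, 144.27 and 130.4 FPKM for Ago2+/+ and 152.93, 120.54 and 124.11 FPKM for Ago2-/-. The median mitochondrial level lay between 10.8 FPKM (Ago2-/- tunicamycin) and 14.9 FPKM (Ago2-/- DMSO). The ratio of both medians ran from 9.85 to 11.3 over the 6 groups, and the ratio of both sums from 10.5 to 14.4. The lowest mean of a cytosolic member (Dars, 72.6 FPKM) was above the highest mean of a mitochondrial member (Lars2, 40.3 FPKM), so the classes did not overlap in mean level.

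The most abundant member was Sars, which charges serine tRNA. It stood at 317.25, 383.41 and 338.79 FPKM in Ago2+/+ DMSO, tunicamycin and thapsigargin, and at 390.22, 311.92 and 290.93 FPKM in the same treatments of Ago2-/-. Gars and Nars, the glycyl and asparaginyl enzymes, followed with means of 319.41 and 304.25 FPKM. The least abundant was Mars2, the mitochondrial methionyl enzyme, with a mean of 3.74 FPKM. Set side by side for the same amino acid, the cytosolic enzyme exceeded the mitochondrial one in mean level by a factor of 2.89 (Lars over Lars2) to 38.8 (Eprs over Pars2), with a median of 8.56 over 17 pairs. Eprs carries both the glutamyl and the prolyl activity of the cytosol and so enters 2 of these pairs.

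**Figure D1:**
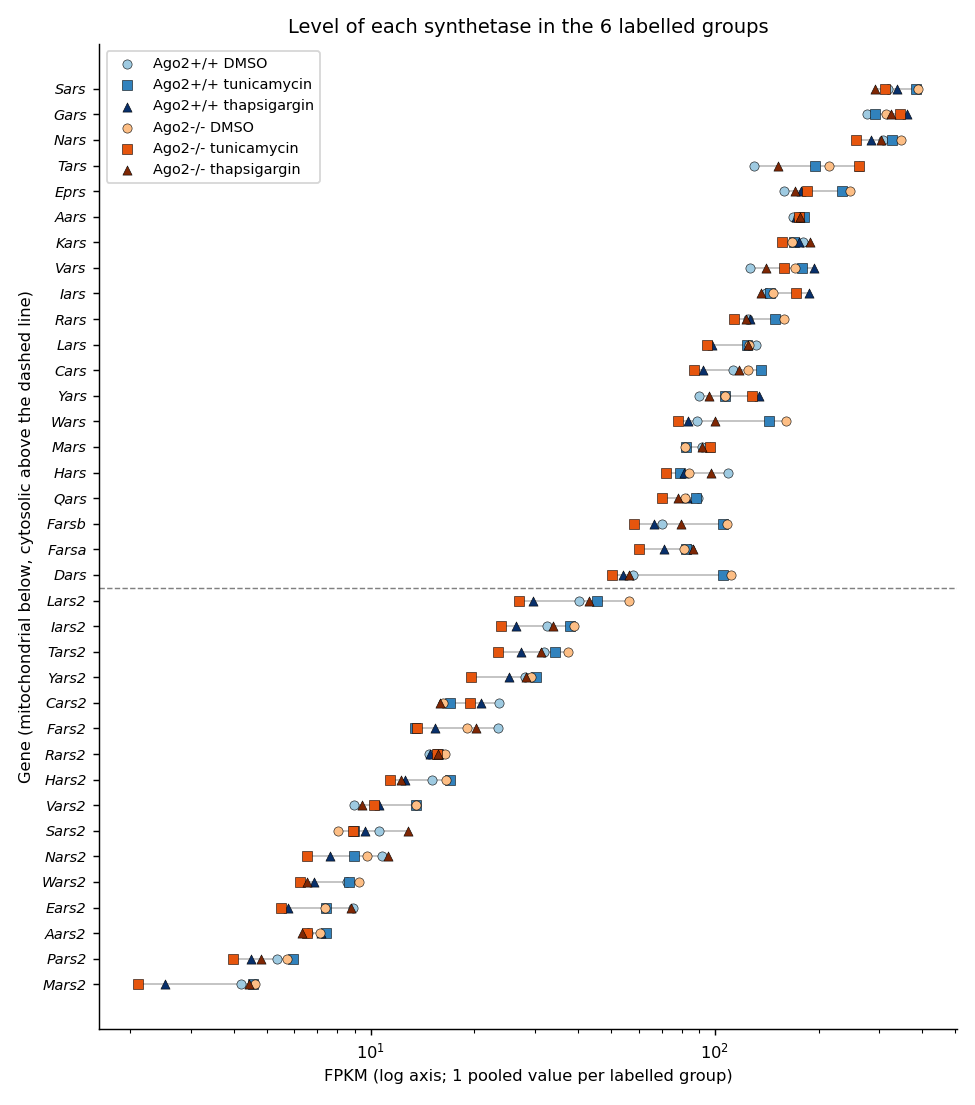
FPKM of the 36 synthetases on a log axis, 1 symbol for each of the 6 labelled groups (blue, Ago2+/+; orange, Ago2-/-; circle DMSO, square tunicamycin, triangle thapsigargin), with a grey line from the lowest to the highest group and genes ordered by mean within each class. Mean levels run from 3.74 FPKM for Mars2 to 338.75 FPKM for Sars, and no mitochondrial mean reaches that of the lowest cytosolic gene, Dars.

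Few members ranged 2-fold between groups. The highest group exceeded the lowest by at least 1.5-fold in 8 of 20 cytosolic and 10 of 16 mitochondrial members, against 68.3% of all loci. It did so by at least 2-fold in 3 cytosolic members (Dars, Tars and Wars) and 2 mitochondrial members (Lars2 and Mars2), against 38.0% of all loci. The median ratio of highest to lowest was 1.42 for cytosolic members, 1.57 for mitochondrial members and 1.74 for all loci. These sets were not matched for level. Aars was the flattest cytosolic gene, from 169.13 to 181.5 FPKM, although its locus also holds Exosc6, an exosome subunit. Rars2, the mitochondrial arginyl enzyme, was the flattest of its class, from 14.7 to 16.4 FPKM.

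Dars, the aspartyl enzyme (chr1:128363707-128417368, minus strand), ranged most. Its levels were 57.9, 105.32 and 54.2 FPKM in Ago2+/+ DMSO, tunicamycin and thapsigargin, and 111.63, 50.1 and 56.2 FPKM in the same treatments of Ago2-/-. The groups labelled Ago2+/+ tunicamycin and Ago2-/- DMSO were high and the other 4 were low. Dars is 1 of 8 enzymes held in the multisynthetase complex. Of those 8, 2 ranged at least 1.5-fold (Dars and Eprs), and 0 of the 3 scaffold proteins of the complex did (Aimp1, Aimp2 and Eef1e1), beside the 68.3% of all loci.

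Wars, the tryptophanyl enzyme (chr12:108860030-108894174, minus strand), followed the same order at the top. Its levels were 88.6, 143.52 and 83.6 FPKM in Ago2+/+ DMSO, tunicamycin and thapsigargin, and 161.4, 78.3 and 100.14 FPKM in the same treatments of Ago2-/-. Wars is also known as an interferon-induced gene. The interferon-stimulated gene Isg15 was at 39.2 FPKM in Ago2+/+ DMSO and 21.4 FPKM in Ago2-/- thapsigargin, but at 0.881 and 1.43 FPKM in the groups where Wars was highest. Irf1, an interferon-induced transcription factor, had its highest levels in the same groups as Wars, at 27.8 FPKM in Ago2-/- DMSO and 26.1 FPKM in Ago2+/+ tunicamycin. Of the 8 listed interferon-stimulated genes 4 reached a mean of 1 FPKM, and they had no common order over the groups. Farsb, a subunit of the phenylalanyl enzyme, was likewise highest in Ago2-/- DMSO (108.59 FPKM) and Ago2+/+ tunicamycin (105.28 FPKM) and lowest in Ago2-/- tunicamycin (58.2 FPKM). It shares 248 exon bases with Sgpp2 on the other strand. Its partner subunit Farsa was highest in Ago2-/- thapsigargin.

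Tars, the threonyl enzyme (chr15:11382301-11399665, minus strand), peaked in different groups. Its levels were 130.17, 195.56 and 262.2 FPKM in Ago2+/+ DMSO, tunicamycin and thapsigargin, and 214.9, 261.96 and 152.61 FPKM in the same treatments of Ago2-/-. The highest values were those of Ago2+/+ thapsigargin and Ago2-/- tunicamycin, and the lowest those of Ago2+/+ DMSO and Ago2-/- thapsigargin. Gars, Iars, Yars and Vars (glycyl, isoleucyl, tyrosyl and valyl) also had their highest level in Ago2+/+ thapsigargin. No other member peaked there in the deposited values, but with the groups scaled to the same total FPKM all of these except Vars were highest in Ago2-/- tunicamycin.

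Both mitochondrial members that ranged at least 2-fold were lowest in the 2 groups where Tars peaked. Lars2, the leucyl enzyme (chr9:123366927-123462666, plus strand), measured 40.3, 45.5 and 29.6 FPKM in Ago2+/+ DMSO, tunicamycin and thapsigargin, and 56.4, 26.9 and 43.2 FPKM in the same treatments of Ago2-/-. Mars2 (chr1:55237177-55248470, plus strand) measured 4.21, 4.55 and 2.52 FPKM in Ago2+/+ and 4.62, 2.11 and 4.44 FPKM in Ago2-/-, in the same order. For Mars2 the other 4 groups lay between 4.21 and 4.62 FPKM.

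The remaining cytosolic members had narrower ranges. Eprs ran from 158.45 FPKM in Ago2+/+ DMSO to 246.84 FPKM in Ago2-/- DMSO. Hars, the histidyl enzyme, was highest in Ago2+/+ DMSO (109.15 FPKM) and lowest in Ago2-/- tunicamycin (72.0 FPKM), and it shares 195 exon bases with its mitochondrial counterpart Hars2 on the other strand. Cars (cysteinyl, 86.9 to 136.12 FPKM), Rars (arginyl, 113.31 to 158.51), Lars (leucyl, 95.0 to 131.95), Nars (256.33 to 346.93), Qars (glutaminyl, 70.3 to 89.2) and Kars (lysyl, 156.54 to 189.13) were also lowest in Ago2-/- tunicamycin. Mars, the methionyl enzyme, ran the other way, from 82.0 FPKM in Ago2-/- DMSO to 97.0 FPKM in Ago2-/- tunicamycin.

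Most other mitochondrial members had their minimum in Ago2-/- tunicamycin too. Iars2 (23.9 to 38.8 FPKM), Tars2 (23.4 to 37.4), Yars2 (19.5 to 30.2), Hars2 (11.4 to 17.0), Nars2 (6.51 to 11.2), Wars2 (6.24 to 9.27), Ears2 (5.47 to 8.88) and Pars2 (3.97 to 5.94) did so. Exceptions were Fars2, which lay between 13.4 FPKM in Ago2+/+ tunicamycin and 23.4 FPKM in Ago2+/+ DMSO, and Cars2, between 15.9 FPKM in Ago2-/- thapsigargin and 23.5 FPKM in Ago2+/+ DMSO. Sars2 and Vars2 had their minima in the DMSO groups, at 8.03 FPKM in Ago2-/- and 8.95 FPKM in Ago2+/+. Aars2 stayed between 6.29 and 7.42 FPKM.

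Over the whole family, 14 of 36 members were highest in Ago2-/- DMSO, 7 in each class, beside 17.3% of all loci. A larger number, 21 of 36, were lowest in Ago2-/- tunicamycin, among them 11 of 20 cytosolic and 10 of 16 mitochondrial members, beside 19.6% of all loci. Ago2+/+ thapsigargin held the highest level of 5 cytosolic and 0 mitochondrial members, beside 15.9% of all loci. It held the lowest level of 0 members, beside 14.0% of all loci. Ago2-/- tunicamycin also had the lowest total FPKM. With equal totals, 13 of 36 members were lowest there (5 cytosolic and 8 mitochondrial, beside 8.95% of all loci). In that scaling 11 were highest in Ago2-/- DMSO (14.5% of all loci) and 2 in Ago2+/+ thapsigargin (6.41% of all loci). Ago2+/+ thapsigargin then held the lowest level of 7 members, beside 22.5% of all loci.

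**Figure D2:**
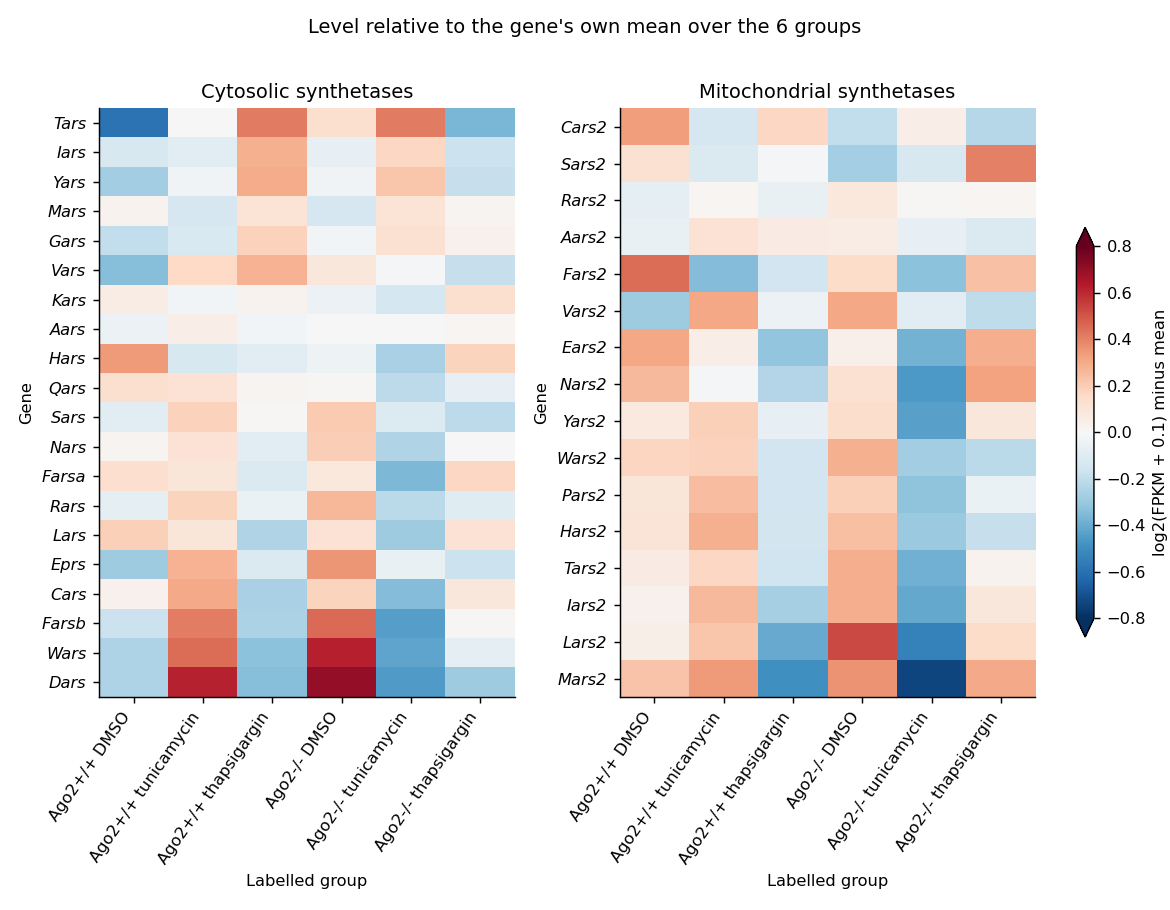
Level of each synthetase in each labelled group as log2(FPKM + 0.1) minus the mean of the gene over the 6 groups (red, above; blue, below), with genes ordered within each class by their level in Ago2+/+ tunicamycin and Ago2-/- DMSO relative to Ago2+/+ thapsigargin and Ago2-/- tunicamycin. Dars, Wars and Farsb at the foot of the cytosolic panel and most mitochondrial genes are lowest in Ago2-/- tunicamycin, whereas Tars, Iars and Yars at the top are highest in Ago2+/+ thapsigargin; with equal totals Dars and Wars are lowest in Ago2+/+ thapsigargin, and Tars, Iars and Yars highest in Ago2-/- tunicamycin.

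The first question of the design is how each stressor moved the genes within a label. With tunicamycin in Ago2+/+, the median log2 ratio to DMSO was 0.18 for cytosolic and 0.11 for mitochondrial members. Dars (0.86), Wars (0.70), Tars (0.59) and Vars2 (0.59) were at least 1.5-fold higher, 4 of 36 beside 17.2% of all loci. Fars2, the mitochondrial phenylalanyl enzyme, was lower at -0.80, 1 of 36 beside 16.2% of all loci. Fars2 shares exon bases with genes on the other strand, 501 of them with Nrn1. With equal totals the balance turned, and 1 member was higher (Dars) and 3 were lower (Hars, Cars2 and Fars2), beside 13.0% and 22.9% of all loci.

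With thapsigargin in Ago2+/+, the median log2 ratio was -0.0046 for cytosolic and -0.25 for mitochondrial members. Tars (1.01) and Vars (0.62) were higher, 2 of 36 beside 16.7% of all loci. Ears2 (-0.62), Fars2 (-0.60) and Mars2 (-0.72) were lower, 3 of 36 beside 15.2% of all loci. The members past the ratio thus comprised 2 cytosolic genes above DMSO and 3 mitochondrial genes below it. With a pseudocount of 1, 2 members were higher and 0 lower, so no mitochondrial gene passed. With equal totals 1 was higher (Tars) and 4 were lower (Ears2, Fars2, Mars2 and Nars2), beside 14.1% and 18.9% of all loci.

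With tunicamycin in Ago2-/-, both classes lay below DMSO, with medians of -0.27 for cytosolic and -0.53 for mitochondrial members. No member was at least 1.5-fold higher (0 of 36 beside 21.4% of all loci). Dars (-1.15), Wars (-1.04), Farsb (-0.90), Iars2 (-0.70), Lars2 (-1.07), Mars2 (-1.09) and Tars2 (-0.67) were lower, 7 of 36 beside 19.8% of all loci. The largest ratio above DMSO was that of Tars at 0.29. Iars2, the mitochondrial isoleucyl enzyme, shares 2034 exon bases with Rab3gap2 on the other strand.

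With thapsigargin in Ago2-/-, the medians were -0.13 and -0.12. Sars2, the mitochondrial seryl enzyme, was higher at 0.67, 1 of 36 beside 16.7% of all loci. Dars (-0.99) and Wars (-0.69) were lower, 2 of 36 beside 19.1% of all loci. Dars and Wars were therefore past the ratio in opposite directions under tunicamycin in the 2 labels, 2 of 36 members beside 18.6% of all loci. With equal totals Wars no longer passed in Ago2+/+ (0.52), and Dars alone met this pattern, beside 20.4% of all loci. Under thapsigargin 0 of 36 members were past the ratio in opposite directions, beside 12.6% of all loci.

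In each of these 4 comparisons the median over all loci was within 0.03 of 0 on the log2 scale. Both comparisons within a label share their DMSO group. Scaling all groups to the same total FPKM shifted all loci by between -0.18 and 0.17 in these comparisons. With that scaling the class medians for tunicamycin in Ago2+/+ turned to -0.0014 (cytosolic) and -0.073 (mitochondrial), below 0 but above the median of all loci, -0.16, while those for tunicamycin in Ago2-/- remained below 0 at -0.097 and -0.35.

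**Figure D3:**
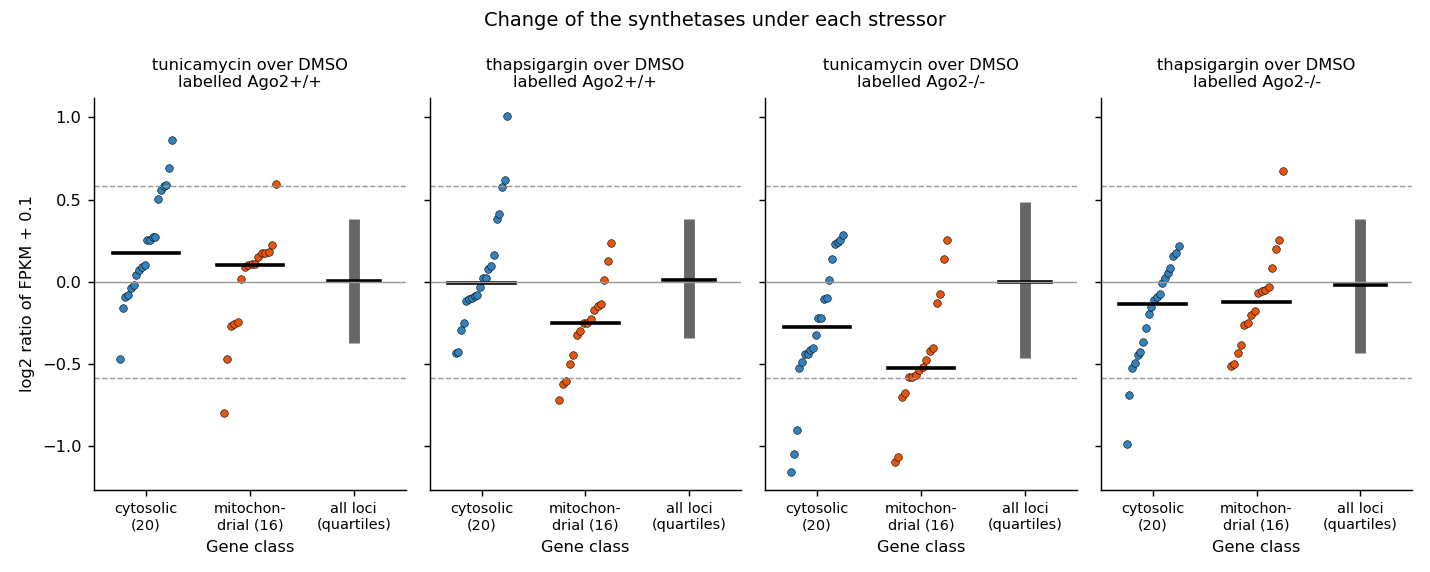
Log2 ratio of FPKM + 0.1 between stressor and DMSO for 20 cytosolic (blue) and 16 mitochondrial (orange) synthetases, 1 panel per comparison, with black bars at the medians, dashed lines at 1.5-fold, and a grey bar for the quartiles of all 11929 loci. The mitochondrial median is lowest with tunicamycin in Ago2-/- (-0.53), and Tars stands highest with thapsigargin in Ago2+/+ (1.01).

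The second question is how the labels Ago2-/- and Ago2+/+ differed at the same treatment. Under DMSO the median log2 ratio was 0.18 for cytosolic and 0.12 for mitochondrial members (0.021 and -0.038 after scaling to the same total, with all loci at -0.14). Dars (0.95), Wars (0.86), Tars (0.72), Eprs (0.64), Farsb (0.63) and Vars2 (0.59) were higher in the labelled knockout, 6 of 36 beside 17.2% of all loci. None was lower by that ratio, beside 16.7% of all loci. With equal totals 2 were higher (Dars and Wars) and 1 was lower (Cars2), beside 13.4% and 22.7% of all loci.

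Under tunicamycin the order was the opposite, with medians of -0.31 and -0.46. None was higher by 1.5-fold in the labelled knockout, beside 20.7% of all loci. Cars (-0.65), Dars (-1.07), Wars (-0.87), Farsb (-0.85), Iars2 (-0.67), Lars2 (-0.76), Mars2 (-1.07) and Yars2 (-0.63) were lower, 8 of 36 beside 19.4% of all loci. With equal totals 1 was higher (Tars) and 4 were lower (Dars, Wars, Farsb and Mars2), beside 28.7% and 13.8% of all loci.

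Under thapsigargin the cytosolic median was 0.0011 and the mitochondrial median 0.17. Ears2 (0.61) and Mars2 (0.79) were higher, 2 of 36 beside 14.9% of all loci, and Tars (-0.78) was lower, 1 of 36 beside 17.7% of all loci. With equal totals 4 were higher (Ears2, Lars2, Mars2 and Nars2) and Tars was lower, beside 17.5% and 15.6% of all loci. The direction of Dars and Wars between the labels thus depended on the treatment.

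The groups fell into 3 close pairs that cross both labels. Ago2+/+ tunicamycin and Ago2-/- DMSO differed by a median absolute log2 ratio of 0.064 over the members and 0.090 over all loci. For Ago2+/+ thapsigargin and Ago2-/- tunicamycin the values were 0.13 and 0.12, and for Ago2+/+ DMSO and Ago2-/- thapsigargin 0.085 and 0.17. In these pairs 0 of 36 members differed by 1.5-fold, beside 3.40%, 4.39% and 9.30% of all loci in turn. In the other 12 pairs, between 1 and 8 members did, beside 31.9% to 41.2% of all loci, and the median over all loci was 0.36 to 0.47. Col1a1 moved with the same pairs, at 6.77 and 5.97 FPKM in the first pair, 520.9 and 651.1 FPKM in the second, and 111.9 and 87.1 FPKM in the third. The part of this pairing, and of the collagen difference, in the values for labels and stressors was not tested. In pooled RNA of this kind, fewer cells of a type and less RNA per cell cannot be told apart.

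**Figure D4:**
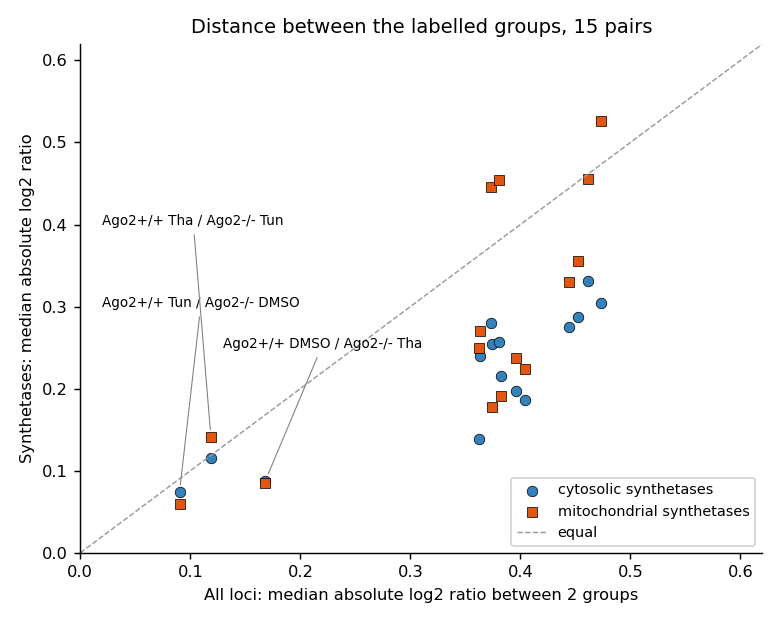
Median absolute log2 ratio of FPKM + 0.1 between 2 labelled groups, over all loci (horizontal) and over cytosolic (circles) or mitochondrial (squares) synthetases (vertical), for the 15 pairs of groups (Tun, tunicamycin; Tha, thapsigargin). The 3 named pairs lie at the lower left, and the dashed line marks equal values.

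Of the 5 cytosolic synthetases with the CARE core, 4 were highest in Ago2+/+ thapsigargin (Gars, Iars, Tars and Yars), beside 15.9% of all loci. Of the same 5, 4 were lowest in Ago2+/+ DMSO (Aars, Gars, Tars and Yars), beside 15.2% of all loci. Of the 8 cytosolic genes whose promoter held no match, 0 were highest in Ago2+/+ thapsigargin. Of these 8, 4 were highest in Ago2-/- DMSO (17.3% of all loci) and 5 lowest in Ago2-/- tunicamycin (19.6% of all loci). The 7 genes without a promoter entry had 1 gene, Vars, highest in Ago2+/+ thapsigargin. With equal totals all 5 genes with the core were highest in Ago2-/- tunicamycin, beside 31.5% of all loci, and 0 in Ago2+/+ thapsigargin. Expressed as a median log2 ratio to DMSO, thapsigargin in Ago2+/+ gave 0.41 for genes with the core and -0.056 for those without. Tunicamycin in Ago2-/- gave 0.23 and -0.37, and thapsigargin in Ago2-/- gave -0.11 and -0.25. Tunicamycin in Ago2+/+ gave 0.10 with the core and 0.13 without, the opposite order. Of the 5 genes with the core, however, only Tars passed 1.5-fold in any of the 7 comparisons, and Aars stayed flat.

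For Yars the levels were 90.0, 107.14 and 134.11 FPKM in Ago2+/+ DMSO, tunicamycin and thapsigargin, and 107.25, 127.77 and 96.3 FPKM in the same treatments of Ago2-/-. Iars stood at 141.03, 145.01 and 187.44 FPKM in Ago2+/+ and at 147.36, 172.56 and 136.4 FPKM in Ago2-/-. In both genes the levels in Ago2+/+ thapsigargin and Ago2-/- tunicamycin exceeded those in the other 4 groups. The same held for Gars, at 362.09 and 345.98 FPKM there and between 277.24 and 325.5 FPKM elsewhere.

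**Figure D5:**
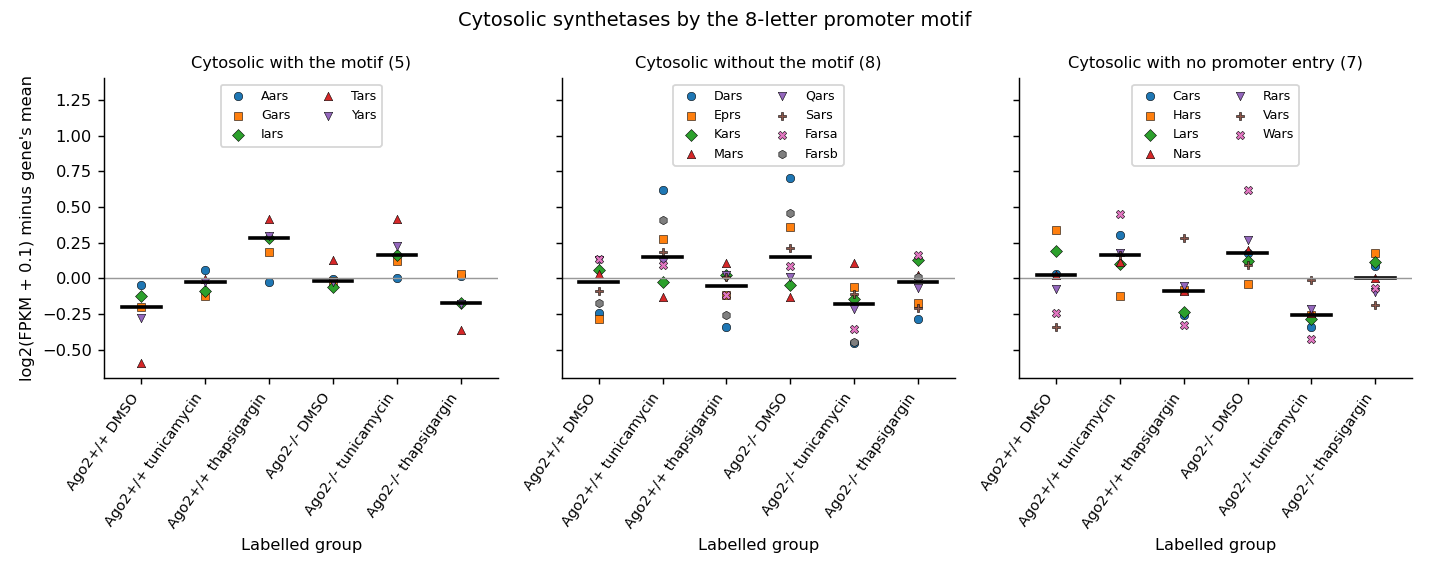
Level of the 20 cytosolic synthetases in each labelled group as log2(FPKM + 0.1) minus the mean of the gene, split by whether the RefSeq promoter held the core (5 genes), held no match (8) or had no entry (7), with black bars at the medians. The median of the 5 genes with the core is highest in Ago2+/+ thapsigargin (0.28) in these deposited values, and that of the 8 without is lowest in Ago2-/- tunicamycin (-0.18).

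Among the other ATF4 targets, 19 of the 20 listed genes were found. The range over the groups was at least 1.5-fold in 10 of the 19, beside 68.3% of all loci. Asns, which makes asparagine, measured 150.4, 184.4 and 284.8 FPKM in Ago2+/+ DMSO, tunicamycin and thapsigargin, and 187.5, 282.8 and 196.8 FPKM in the same treatments of Ago2-/-. As for Tars, the 2 highest groups were Ago2+/+ thapsigargin and Ago2-/- tunicamycin. The same 2 groups were highest for Vldlr, Slc3a2, Nupr1, Atf3, Ddit3, Sesn2 and Xpot, and for Atf4 mRNA. These 2 groups form 1 of the close pairs above (median absolute log2 ratio 0.12 over all loci). The share of all loci with both at the top was not computed. Vldlr ranged most, from 0.565 FPKM in Ago2+/+ DMSO to 28.2 FPKM in Ago2-/- tunicamycin. Atf4 mRNA ran from 394.0 FPKM in Ago2+/+ DMSO to 582.9 FPKM in Ago2+/+ thapsigargin, a range of 1.48-fold. The 2 highest groups were others for Atf5, Chac1, Cth, Mthfd2, Phgdh, Psat1, Pycr1, Shmt2, Slc7a1, Slc7a11 and Trib3. Slc7a11, a cystine transporter, was highest in Ago2-/- DMSO (26.3 FPKM) and lowest in Ago2+/+ DMSO (7.45 FPKM), and Phgdh, the first enzyme of serine synthesis, was highest in Ago2-/- DMSO (748.5 FPKM) and lowest in Ago2-/- tunicamycin (367.0 FPKM). Ddit3, the stress-induced factor CHOP, ranged 1.47-fold, from 236.8 to 349.1 FPKM. Its exons overlap those of Mars on the other strand by 68 bases, and the sources used here do not give the strandedness of the libraries. In all, 13 of the 36 members share exon bases with a gene on the other strand, and for them the reads of the partner cannot be told apart.

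Of the 12 synthetases listed as ATF4 targets, 4 ranged at least 1.5-fold, as did 4 of the other 8 cytosolic members, beside the 68.3% of all loci. Their median log2 ratio to DMSO was 0.086 with thapsigargin in Ago2+/+ and -0.16 with tunicamycin in Ago2-/-, against -0.089 and -0.33 for the other 8.

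For single amino acids the balance between compartments moved most for threonine, methionine, serine and, by the Farsb subunit only, phenylalanine. The ratio of Tars to Tars2 ran from 4.08 in Ago2+/+ DMSO to 11.2 in Ago2-/- tunicamycin, as Tars was lowest in the former and Tars2 in the latter. The ratio of Mars to Mars2 ran from 17.8 to 45.9 and that of Sars to Sars2 from 22.6 to 48.6. Farsb over Fars2 ran from 3.00 to 7.84, but the other subunit, Farsa, over Fars2 only from 3.61 to 6.13. Arginine was the steadiest but for alanine, with Rars over Rars2 between 7.27 and 9.67 and Aars over Aars2 between 23.9 and 28.1.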

How the data were processed

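RNA-seq of 18 libraries (6 groups of 3) was deposited as 1 table of 772485 rows, 1 for each of 51499 loci and 15 pairs of groups. According to the methods and the submitters' processing notes, the authors aligned reads with HISAT2 2.1.0 to Ensembl release 91 (GRCm38), assembled transcripts with StringTie 1.3.4d and quantified them with Cuffdiff 2.2.1. The deposited FPKM is 1 estimate by the authors per group over its replicates, so precision per library is unknown. The sources used here do not give the library scaling. Columns holding the authors' own fold changes, test statistics, p-values and q-values were not used.

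Groups came from the labels. Names with DCR1 were read as Ago2+/+ from the source or genotype labels. The 4 libraries with conflicting genotype labels (replicate 2 of each group labelled Ago2+/+, and replicate 3 of Ago2-/- DMSO) could not be left out of the pooled values. Members and gene lists were chosen with earlier results of these data known. Log2 ratios used a pseudocount of 0.1 FPKM, the 11929 loci averaging 1 FPKM or more over the groups, and a threshold of 1.5-fold. Without replicate values no test was run. All 6 values were given for members ranging at least 2-fold, for the extremes of each class by mean and for members past 1.5-fold in opposite directions. Values of other genes, such as those of Gars, Iars and Yars, were added for the promoter comparison after they had been seen. Promoter sequences were RefSeq's (GRCm38.p6), and 1 of them is not reported here. Scripts ran in Python 3.11.15 with pandas 2.3.3 and were tested on simulated data. Alternatives covered the pseudocount, scaling, filter, threshold and shared loci.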

Additional observations from a re-analysis of the deposited data

Results flagged for a closer look

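The tunicamycin response of 2 members differed in direction between the labels. For Dars the log2 ratio to DMSO was 0.86 in Ago2+/+ and -1.15 in Ago2-/-, a difference of -2.02. For Wars it was 0.70 and -1.04, a difference of -1.74. These results were flagged because the labelled groups moved in opposite directions past 1.5-fold. Each group has 1 pooled value, so the difference was not tested. With the groups scaled to the same total FPKM, Wars in Ago2+/+ fell under the threshold at 0.52, and Dars alone met the pattern. The pattern was thus met by 2 of 36 members beside 18.6% of all loci, so it was common at large. With equal totals it was met by 1 of 36 beside 20.4% of all loci.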

How the results depend on the processing

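Of 188 values recomputed for 28 results, 155 stayed within 0.1 (medians, log2) or within 1.5 times (counts and ratios) of the reported value and 33 did not. Centring on the median of all loci, dropping the pseudocount, another filter on the mean and leaving out the 1 locus with a further gene moved none past these limits, and neither did sums or matched amino acids for the level ratios. Scaling the groups to the same total FPKM moved the cytosolic medians to -0.0014 (tunicamycin) and -0.12 (thapsigargin) in Ago2+/+, -0.097 and -0.014 in Ago2-/-, and 0.021 (DMSO) and -0.11 (tunicamycin) between the labels. The mitochondrial medians moved to -0.073, -0.36, -0.35, -0.0024, -0.038 and -0.26 in the same order. By construction this shifts all loci, in these 6 comparisons by between -0.18 and 0.20. Members past 1.5-fold between the labels then numbered 3 (DMSO), 5 (tunicamycin) and 5 (thapsigargin), and 12 of 36 ranged 1.5-fold in place of 18 (70.7% of all loci). Higher and lower members became 1 and 3 in place of 4 and 1 for tunicamycin in Ago2+/+, and 2 and 1 in place of 6 and 0 under DMSO between the labels. With a pseudocount of 1, 3 members in place of 5 passed for tunicamycin in Ago2+/+. For thapsigargin in Ago2+/+ it was 2 in place of 5, with 2 higher and 0 lower. At a ratio of 5 to 4 the counts were 10, 12, 22 and 12 for the stressors, 12, 22 and 14 between the labels, and 31 for the range. At 2-fold they were 0, 1, 4 and 0, then 0, 2 and 0, and 5. No paired analysis was possible because the table holds 1 pooled value per group, and no replicate could be left out for the same reason. Unknown depth and the missing replicate spread limit every difference given.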

Other observations

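Mitochondrial elongation factors act in translation by the mitochondrial ribosome, and 4 genes were listed as such factors. Of the 4 factors, 3 had their 2 lowest levels in the same groups as Lars2 and Mars2. Tufm measured 91.9, 108.5 and 61.3 FPKM in Ago2+/+ DMSO, tunicamycin and thapsigargin, and 102.7, 53.6 and 95.6 FPKM in the same treatments of Ago2-/-. Gfm1 measured 94.7, 78.3 and 55.9 FPKM, then 81.3, 50.6 and 104.4 FPKM. Both were lowest in Ago2+/+ thapsigargin and Ago2-/- tunicamycin, as was Gfm2. The share of all loci lowest in these 2 groups was not computed. Tsfm differed, being highest in Ago2+/+ thapsigargin (39.1 FPKM) and lowest in Ago2-/- DMSO (31.2 FPKM). Of the 4 factors 3 ranged at least 1.5-fold, and of 5 cytosolic factors 2 did (Eef1b2 and Eef1g), beside 68.3% of all loci.

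Among 12 further genes listed as tRNA partners of the synthetases, 5 ranged at least 1.5-fold, beside 68.3% of all loci. The 5 included Tarsl2, a threonyl synthetase-like gene outside the 36 members, from 24.6 to 38.5 FPKM. Its locus also holds Tm2d3, and its highest level was in Ago2-/- DMSO. Gatb, a subunit of the enzyme that makes glutaminyl-tRNA in mitochondria, stood at 11.6, 11.8 and 3.51 FPKM in Ago2+/+ DMSO, tunicamycin and thapsigargin, and at 12.3, 4.17 and 10.4 FPKM in the same treatments of Ago2-/-. Its partner subunit Gatc was highest where Gatb was lowest, with 23.8 FPKM in Ago2+/+ thapsigargin and 21.6 FPKM in Ago2-/- tunicamycin. Gatc was nearly as high in Ago2-/- DMSO (21.3 FPKM), where Gatb was highest, and was lowest in Ago2-/- thapsigargin (13.8 FPKM). Dtd1, which removes D-amino acids from tRNA, was lowest in Ago2+/+ thapsigargin (8.97 FPKM) and Ago2-/- tunicamycin (9.86 FPKM) and highest in Ago2+/+ DMSO (26.8 FPKM). Gatb and Dtd1 were picked from their list by size of change and Gatc as the partner of Gatb. Pstk, of the same list, also ranged 1.71-fold and was lowest in Ago2-/- DMSO (14.7 FPKM). No difference was tested.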
